A study of Mus musculus with 6 samples.

Results

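The proteasome genes of activated mouse CD4+ T cells are the 48 genes, of 23420 in the table, whose symbol joins *Psma*, *Psmb*, *Psmc*, *Psmd*, *Psme*, *Psmf* or *Psmg* to a number. They encode the subunits of the core and the cap of the proteasome, its activators and inhibitor, and the chaperones that assemble it. Their names alone set which genes belong, but the members were chosen with earlier results of these data known. RNAseq was done on 6 libraries of naive CD4+CD62L+ T cells from spleens of Balb/c mice aged 12 weeks, 2 libraries in each of 3 groups. All cells were stimulated with anti-CD3 and anti-CD28, received concentrated lentivirus at 10 µl per well after 24 hr, were fed with media and IL-2 after another 24 hr without polarizing cytokines, and were harvested 48 hr later. The groups were *Dyrk1a* shRNA without harmine, control (scrambled) shRNA with 3.7 µM harmine, an inhibitor of DYRK1A and other kinases, and control shRNA without harmine, called the control below. The shRNA arms therefore differed only in the hairpin, and the harmine cells carried the control hairpin too. The study describes no selection of transduced cells for these libraries, and several hairpins per target are listed without saying which ones were used here. The comparisons asked how the kinase inhibitor and the hairpin against its target each moved the transcriptome, and whether they moved it alike.

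The 26S proteasome degrades proteins that carry ubiquitin chains. Its 20S core is a barrel of alpha rings, which gate the entry, around beta rings, which hold the proteolytic sites, and its 19S cap binds, unfolds and feeds in substrates with ATPases and non-ATPase subunits. In T cells and other cells under interferon, the catalytic beta subunits are exchanged for immunoproteasome subunits, which alter the peptides made for MHC class I, and stimulated T cells need the proteasome to enter and pass the cell cycle.

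The depth limits these measurements, and 1 control library stood apart in the proteasome genes. The libraries held 2678872 and 3274050 counts with *Dyrk1a* shRNA, 3441063 and 3747648 with harmine, and 1743428 and 1096345 in the controls. Markers of CD4 T cells summed to 2329 to 2602 CPM (counts divided by library size and scaled by TMM), and 7 of the 8 markers were in the table, each above 0. Markers of other cells were low but not absent. Myeloid markers summed to 35.3 and 24.2 CPM with *Dyrk1a* shRNA, 34.0 and 24.6 CPM with harmine, and 62.8 and 27.9 CPM in controls 1 and 2. CD8 T and NK cell markers reached 57.1 CPM in control 1 and erythroid and platelet markers 30.1 CPM, against 35.5 to 43.6 CPM and 10.3 to 15.6 CPM in the other libraries, whereas B cell markers (18.8 to 29.5 CPM) did not single it out. No marker of any of these lists was at 0 in all libraries. *Dyrk1a* itself had 60.2 and 61.9 CPM with its shRNA, 74.8 and 77.6 CPM with harmine, and 58.4 and 82.7 CPM in the controls. The shRNA libraries thus lay within the range of the controls (log2 fold change -0.19, standard error 0.21, edgeR adjusted p = 0.835), and the RNA alone does not show the knockdown.

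Of the 48 genes, 47 had enough counts to be tested. The exception was *Psma8* (chr18:14706151-14762301), the alpha subunit of developing sperm, with 1 and 2 counts with *Dyrk1a* shRNA, 2 and 1 with harmine, and 1 and 0 in the controls. The proteasome genes together took 0.451% and 0.450% of all counts with *Dyrk1a* shRNA, 0.469% and 0.447% with harmine, and 0.530% and 0.466% in the controls. Per kilobase of the median annotated transcript, the 20S alpha genes had a median level of 137 CPM and the 20S beta genes of 102 CPM, above the 19S non-ATPase genes (62.4 CPM), the 19S ATPase genes (31.5 CPM) and the assembly chaperones (20.3 CPM). The activators and inhibitor (143 CPM per kilobase) and the immunoproteasome genes (119 CPM per kilobase) were spread widely within their classes. The immunoproteasome class, as counted here and below, also holds *Psmb11*, the thymoproteasome subunit, at 1.51 CPM per kilobase. With the longest transcript as the length, the 20S alpha genes stayed above the 20S beta genes (118 and 86.2 CPM per kilobase), but the activators and inhibitor came to 28.2 and the immunoproteasome genes to 49.7 CPM per kilobase. *Psmb8*, the immunoproteasome subunit with chymotrypsin-like activity, had the highest level under both lengths (447 and 231 CPM per kilobase).

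**Figure D1:**
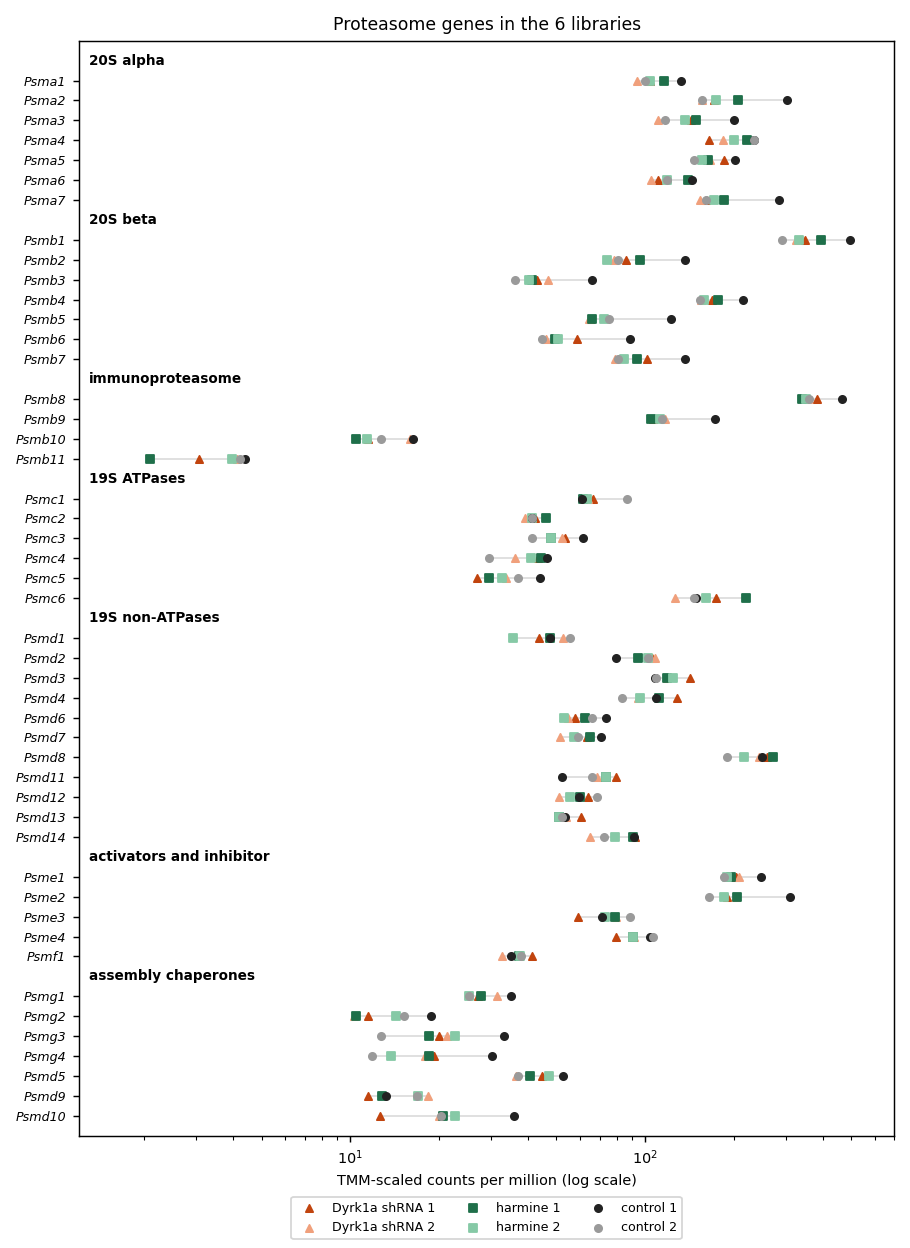
Level of the 47 tested proteasome genes in each library, in TMM-scaled CPM on a log axis, grouped by class (triangles, *Dyrk1a* shRNA; squares, harmine; circles, control). Control 1 (black) lies at the right end of every 20S and immunoproteasome gene, level with control 2 in *Psma4*, whereas its place among the 19S genes varies.

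No proteasome gene changed after adjustment for all 10607 genes tested (edgeR quasi-likelihood test, Benjamini-Hochberg), either with harmine against control, with *Dyrk1a* shRNA against control, or with *Dyrk1a* shRNA against harmine. In these comparisons 0.00943%, 0.0189% and 0.00943% of all genes were called, so calls were rare throughout. The smallest adjusted p of a proteasome gene was 0.905 for harmine, 0.612 for *Dyrk1a* shRNA and 0.866 for the treatments against each other. At an unadjusted p under 0.05, harmine had 0 genes higher and 1 lower of 47, beside 2.22% higher and 3.07% lower among all genes. *Dyrk1a* shRNA had 0 higher and 4 lower, beside 3.10% and 4.59%, and between the treatments there were 0 in either direction, beside 2.91% and 2.82%. The Wald test of DESeq2 also called 0 after adjustment in each comparison, and 0, 2 and 0 at an unadjusted p under 0.05. For this test no share of all genes at that p is given beside the counts. The 95% intervals, taken gene by gene, stayed within 1 log2 unit, or 2-fold, for 41 of 47 genes with harmine. This held for 42 with *Dyrk1a* shRNA and 46 between the treatments. The intervals rest on 2 libraries a group and on controls that differed from each other, so they do not bound what was missed. No source says whether the libraries of a group came from separate animals or cultures, so these p-values measure the spread between the libraries, which may be technical.

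The proteasome genes nevertheless lay mostly below the control. The median log2 fold change was -0.16 with harmine and -0.19 with *Dyrk1a* shRNA, against -0.019 and -0.013 over all genes, and 36 and 35 of 47 genes were below 0, beside 52.5% and 51.6% of all genes. Between *Dyrk1a* shRNA and harmine the median was -0.016, with 25 of 47 below 0, beside 50.1%. The comparisons with control share the same 2 control libraries. With harmine, 3 genes were above both controls in both libraries and 12 were below both, beside 16.4% and 15.9% of all genes. With *Dyrk1a* shRNA, 4 were above and 10 below, beside 18.5% and 16.9%. Between the treatments, 9 were above and 6 below, beside 20.2% and 20.8%.

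By class, the medians of the core genes lay below 0 and those of the cap genes near it. With harmine the class medians were -0.16 for the 20S alpha, -0.35 for the 20S beta and -0.42 for the immunoproteasome genes, against -0.023 for the 19S ATPase and 0.037 for the 19S non-ATPase genes. With *Dyrk1a* shRNA they were -0.33, -0.29 and -0.20, against -0.0056 and 0.11. The activators and inhibitor had medians of -0.17 with harmine and -0.19 with *Dyrk1a* shRNA, and the assembly chaperones of -0.21 with each. The last were 0.090 with harmine and 0.11 with *Dyrk1a* shRNA against control 2 alone, and -0.60 and -0.69 against control 1 alone. These class medians are descriptions with no test.

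**Figure D2:**
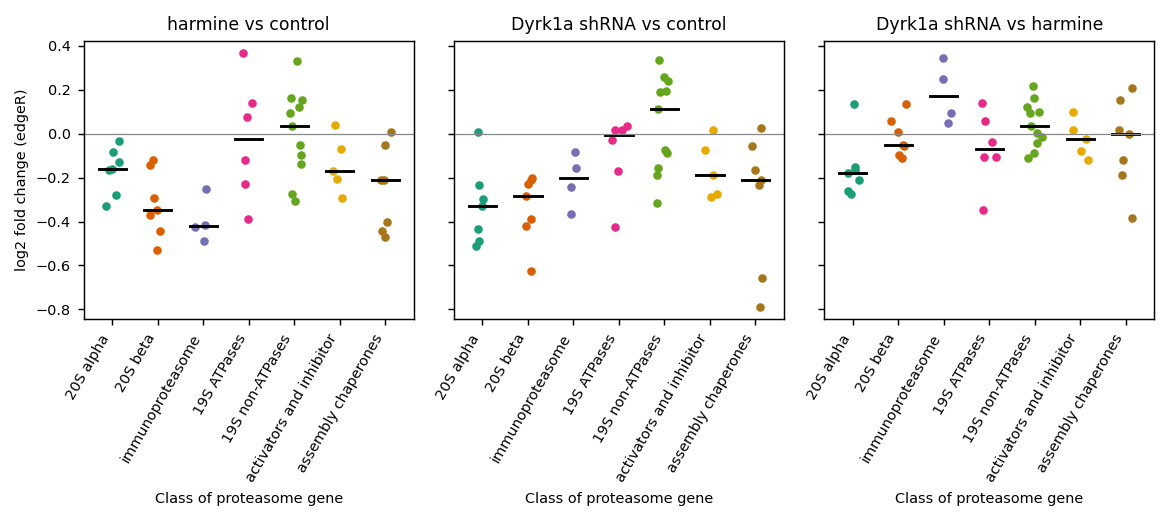
Log2 fold change of each tested proteasome gene (points) and the class median (bars) with harmine against control, *Dyrk1a* shRNA against control and *Dyrk1a* shRNA against harmine. All 7 20S beta genes lie below 0 in both comparisons with control, the 19S genes lie on both sides of 0, and no single gene passed the test after adjustment.

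The 2 controls differed from each other in the same classes. Control 1 was higher than control 2 by a median log2 difference of 0.39 over the 47 proteasome genes, against -0.0044 over all genes. The difference was 0.45 for the 20S alpha, 0.75 for the 20S beta, 0.37 for the immunoproteasome and 0.50 for the assembly chaperone genes, but 0.13 for the 19S ATPase, 0.028 for the 19S non-ATPase and -0.038 for the activator and inhibitor genes. Summed over genes within each library, the 20S alpha and beta genes came to 1909 and 1763 CPM with *Dyrk1a* shRNA, 2098 and 1871 CPM with harmine, and 2757 and 1796 CPM in the controls. Control 2 therefore lay inside the range of the treated libraries and control 1 far above it. The 19S genes summed to 1501 and 1312 CPM with *Dyrk1a* shRNA, 1497 and 1331 CPM with harmine, and 1397 and 1307 CPM in the controls, where no library stands out. Replicates of the treated groups differed far less in the core, by a median over the 20S genes of 0.13 for *Dyrk1a* shRNA and 0.15 for harmine.

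Control 1 was the highest of the 6 libraries for 31 of 47 proteasome genes (66%), beside 24.6% of all genes, a count chosen after its values were seen. These were 14 of 14 tested 20S genes, 4 of 4 genes of the immunoproteasome class and 6 of 7 assembly chaperones. They were only 5 of 17 19S genes and 2 of 5 activators and inhibitor. *Psmb11*, counted in the immunoproteasome class, had 4.39 and 4.22 CPM in controls 1 and 2. *Psmg3* and *Psmg4*, chaperones that pair up under the growing alpha ring, had the widest gaps. *Psmg3* had 19.9 and 21.2 CPM with *Dyrk1a* shRNA, 18.5 and 22.7 CPM with harmine, and 33.3 and 12.7 CPM in the controls. The treated libraries all lay between the controls, of which control 2 rests on 15 counts. Myeloid, CD8 T and NK cell and erythroid markers were highest in the same control library, as given above, and their part in the difference was not tested. Over 9990 genes the difference of the controls followed transcript length at a Spearman correlation of -0.34, and over the 47 proteasome genes at -0.17, across genes that share these libraries. The 20S transcripts are shorter than the 19S transcripts, with medians of 975 and 1526 bases. In bulk RNA, fewer cells of a type and less RNA per cell cannot be told apart.

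**Figure D3:**
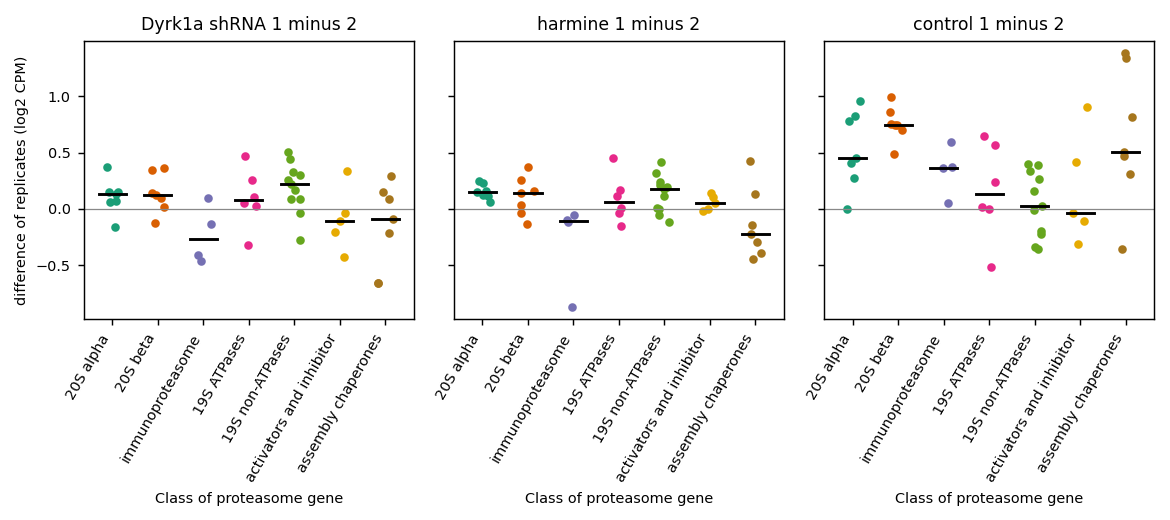
Difference of replicate 1 minus replicate 2 in log2 CPM for each tested proteasome gene (points) with class medians (bars), in the *Dyrk1a* shRNA, harmine and control groups. In the controls the 20S beta genes have a median of 0.75 and the 19S non-ATPase genes of 0.028, and the class medians of the treated groups lie between -0.27 and 0.22.

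The direction of many proteasome genes depended on which control they were set against. Without control 1, the median over the 47 genes was 0.090 with harmine and 0.058 with *Dyrk1a* shRNA, and without control 2 it was -0.35 and -0.30. The sign differed between these settings for 30 of 47 genes with harmine and 24 of 47 with *Dyrk1a* shRNA. The same share over all genes was not computed, so these counts do not set the proteasome genes apart. Without control 2, 5 genes were called with harmine (*Psmb5*, *Psme2*, *Psma7*, *Psma2* and *Psmb6*) and 4 with *Dyrk1a* shRNA (the same without *Psmb6*), all lower by edgeR, when 2.65% and 3.99% of all genes were called. Without control 1, 0 were called in either comparison, and 0 higher and 1 lower passed an unadjusted p of 0.05 in each. No share of all genes at this unadjusted p is given for the fit without control 1. A single control is assumed, in the fits without control 1 or control 2, to vary like the other groups.

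**Figure D4:**
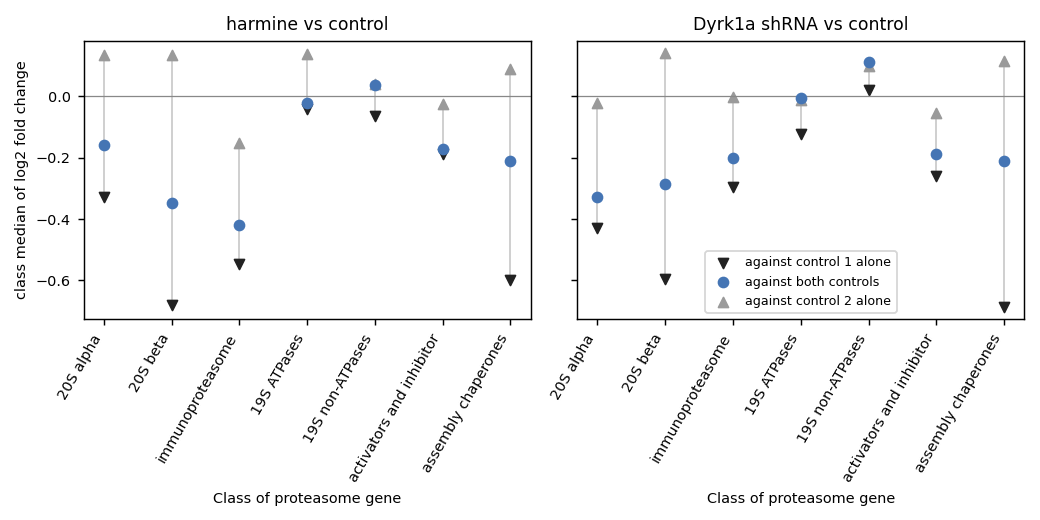
Class median of the log2 fold change with harmine and with *Dyrk1a* shRNA, against both controls (circles) and against control 1 or control 2 alone (triangles down and up). The 20S beta genes run from -0.68 to 0.13 with harmine and from -0.60 to 0.14 with *Dyrk1a* shRNA, while the 19S non-ATPase genes stay between -0.065 and 0.11.

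Against either control alone, 13 genes stayed below 0 and 4 above 0 with harmine, and 16 below and 7 above with *Dyrk1a* shRNA. For these counts too, no share over all genes was computed. Among those below in both comparisons were *Psma4*, *Psmb5*, *Psmb9*, *Psmc5*, *Psme4* and *Psmg2*, and among those above were *Psmc6*, *Psmd3* and *Psmd11*. The immunoproteasome class with harmine was the only class and comparison with control whose members all kept their sign. Its median was -0.15 against control 2 alone and -0.55 against control 1 alone. Its 4 genes include *Psmb11*, the thymoproteasome subunit, which had only 5 to 15 counts per library. With *Dyrk1a* shRNA the medians of this class were -0.00039 and -0.29.

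The catalytic subunits of the core come in constitutive and interferon-induced pairs. RefSeq promoter windows of 300 bases, most of them before the start (GRCm38.p6, the assembly of mm10) were matched for 40 of the 48 genes, in 43 windows. *Psmb5* and *Psmb6* are shown because they carry TGACNNNGC, the core of the antioxidant response element read by NRF1 and NRF2, the factors known to drive proteasome genes, and *Psmb9* because it takes the place of *Psmb6*. Capitals mark TGACNNNGC in *Psmb5* and *Psmb6*, and the letters CCAAT on the opposite strand in *Psmb9*. The sequences run 5′ to 3′ on the strand of the gene.
Psmb5 (chr14:54617946-54618245, minus strand): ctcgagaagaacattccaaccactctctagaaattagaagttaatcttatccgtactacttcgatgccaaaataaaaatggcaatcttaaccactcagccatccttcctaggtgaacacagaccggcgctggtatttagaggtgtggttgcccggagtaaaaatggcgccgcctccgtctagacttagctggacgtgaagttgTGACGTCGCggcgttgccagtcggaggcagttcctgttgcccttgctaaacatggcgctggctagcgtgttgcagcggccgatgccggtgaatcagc
Psmb6 (chr11:70525107-70525406, plus strand): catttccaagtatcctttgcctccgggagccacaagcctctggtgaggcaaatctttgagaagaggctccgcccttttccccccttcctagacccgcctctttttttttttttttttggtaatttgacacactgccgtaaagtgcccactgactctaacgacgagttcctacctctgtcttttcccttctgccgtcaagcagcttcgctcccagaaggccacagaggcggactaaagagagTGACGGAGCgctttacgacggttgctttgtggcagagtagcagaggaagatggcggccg
Psmb9 (chr17:34187281-34187580, minus strand): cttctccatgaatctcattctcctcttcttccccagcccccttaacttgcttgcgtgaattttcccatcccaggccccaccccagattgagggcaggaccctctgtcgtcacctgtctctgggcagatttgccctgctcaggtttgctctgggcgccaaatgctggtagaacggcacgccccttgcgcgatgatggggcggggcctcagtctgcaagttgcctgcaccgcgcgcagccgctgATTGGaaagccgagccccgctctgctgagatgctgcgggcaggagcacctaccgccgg

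TGACNNNGC, on either strand, was found in 6 member windows (*Psmb5*, *Psmb6*, *Psmc6*, *Psmd12*, *Psmd9* and *Psme4*), or 13.95%, beside 12.39% of all 32851 windows. CCAAT was found in 14, or 32.56%, beside 37.41%. GAAA, 2 free bases and GAAA again, the core of the interferon-stimulated response element, was found in 5 (*Psmb3*, *Psmd4*, *Psmd9*, *Psme1* and *Psmg4*), or 11.63%, beside 3.443%. None of these motifs contains another, and a match says only that the letters stand in the window.

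*Psmb5* (chr14:54614119-54618022, minus strand), the constitutive subunit with chymotrypsin-like activity and the target of bortezomib, had the smallest p of all proteasome genes in both comparisons with control. It had 65.1 and 64.3 CPM with *Dyrk1a* shRNA, 65.9 and 72.3 CPM with harmine, and 122 and 75.1 CPM in the controls. Every treated library lay below both controls, but harmine 2 was only just below control 2. The log2 fold change was -0.53 with harmine (standard error 0.22, edgeR unadjusted p = 0.0280) and -0.62 with *Dyrk1a* shRNA (standard error 0.22, unadjusted p = 0.0123). The edgeR adjusted p was 0.905 with harmine and 0.612 with *Dyrk1a* shRNA. Against control 2 alone the fold change was -0.13 with harmine and -0.22 with *Dyrk1a* shRNA, and against control 1 alone -0.82 and -0.92. The exons of *Psmb5* share 109 of 899 bases with the microRNA gene *Mir686* on the same strand.

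The other constitutive catalytic subunits were likewise far higher in control 1 than in control 2. *Psmb6* (chr11:70525367-70527858, plus strand), with caspase-like activity, had 58.6 and 46.0 CPM with *Dyrk1a* shRNA, 49.5 and 50.7 CPM with harmine, and 89.1 and 44.7 CPM in the controls. *Psmb7*, with trypsin-like activity, had 102 and 79.0 CPM with *Dyrk1a* shRNA, 93.9 and 85.0 CPM with harmine, and 136 and 81.0 CPM in the controls. For *Psmb6* every treated library lay between the controls, and for *Psmb7* all but *Dyrk1a* shRNA 2 did. *Psmb7* fitted at -0.29 with harmine and -0.29 with *Dyrk1a* shRNA, and *Psmb6* at -0.44 and -0.39, and all 4 values turned above 0 against control 2 alone. The 4 beta subunits without catalytic sites, *Psmb1* to *Psmb4*, were also highest in control 1. *Psmb1*, the most abundant of them, had 348 and 326 CPM with *Dyrk1a* shRNA, 396 and 331 CPM with harmine, and 494 and 292 CPM in the controls. RSEM divided some reads of *Psmb7*, *Psmb11* and *Psmd9* between genes, since their counts are not whole, and *Psmb7* exons share 405 of 3421 bases with *Nek6* on the opposite strand.

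The genes of the immunoproteasome class had their lowest means with harmine. *Psmb8* (chr17:34197721-34201454, plus strand) had 382 and 358 CPM with *Dyrk1a* shRNA, 339.5 and 352 CPM with harmine, and 464 and 359 CPM in the controls. *Psmb9* (chr17:34181987-34187764, minus strand), the caspase-site replacement, had 107 and 117 CPM with *Dyrk1a* shRNA, 104 and 112 CPM with harmine, and 173 and 114 CPM in the controls. *Psmb10*, the trypsin-site replacement, had 11.5 and 15.9 CPM with *Dyrk1a* shRNA, 10.4 and 11.4 CPM with harmine, and 16.3 and 12.7 CPM in the controls. *Psmb11*, the thymoproteasome subunit of thymic epithelium, was low throughout, between 2.09 and 4.39 CPM, or 5 to 15 counts per library. For all 4, both harmine libraries lay below both controls, and harmine 1 was the lowest of all 6 libraries. Among all genes, 15.9% had both harmine libraries below both controls, and harmine 1 was the lowest library for 13.7%. The gap to control 2 was narrow, as the 352 and 359 CPM of *Psmb8* show. The log2 fold changes with harmine were -0.25 for *Psmb8*, -0.41 for *Psmb9*, -0.43 for *Psmb10* and -0.49 for *Psmb11*, with edgeR standard errors of 0.20, 0.21, 0.34 and 0.59. With *Dyrk1a* shRNA only *Psmb11* lay below both controls, and between *Dyrk1a* shRNA and harmine all 4 were above 0, with a median of 0.17. The median GC content of the class was 55.5%, against 45.0% for the 20S alpha genes. The part of base composition in this difference between the treatments was not tested. *Psmb9* stands head to head with *Tap1* in the MHC region, and their exons share 212 of 3660 bases on opposite strands, which this library type cannot separate.

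Set against its partner within a library, where scaling and the excess of control 1 in both cancel in part, 1 of the 3 pairs differed between the groups without overlap. The ratio of *Psmb8* to *Psmb5* (CPM with 0.5 added) was 5.83 and 5.53 with *Dyrk1a* shRNA, 5.12 and 4.84 with harmine, and 3.78 and 4.75 in the controls. The log2 ratio was higher by 0.42 with *Dyrk1a* shRNA than in the controls, by 0.23 with harmine than in the controls, and by 0.19 with *Dyrk1a* shRNA than with harmine. The exact two-sided permutation test gave p = 0.333 for each, the smallest that 2 libraries against 2 can give, so the test cannot pass. Without control 1 the differences from control were 0.26 with *Dyrk1a* shRNA and 0.068 with harmine, and without control 2 they were 0.59 and 0.40. *Psmb9* to *Psmb6* was 1.81 and 2.53 with *Dyrk1a* shRNA, 2.10 and 2.20 with harmine, and 1.93 and 2.53 in the controls. *Psmb10* to *Psmb7* was 0.118 and 0.207 with *Dyrk1a* shRNA, 0.116 and 0.139 with harmine, and 0.123 and 0.161 in the controls. For these pairs the groups overlapped in all 3 comparisons.

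**Figure D5:**
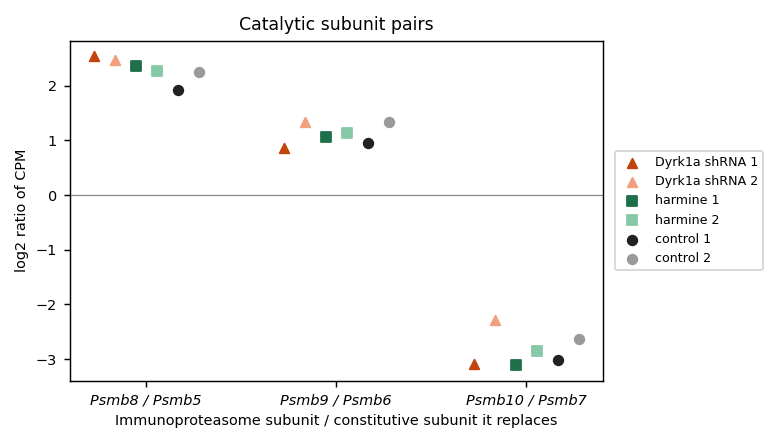
Log2 ratio of each interferon-induced catalytic subunit to the constitutive subunit it replaces, per library, from CPM with 0.5 added (triangles, *Dyrk1a* shRNA; squares, harmine; circles, control). For *Psmb8* over *Psmb5* the groups do not overlap, with *Dyrk1a* shRNA above harmine and harmine above control, and the other pairs overlap. For that pair harmine 2 (2.28) lies just above control 2 (2.25), and control 1 is at 1.92.

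The alpha ring held the gene whose controls differed least. *Psma4* (chr9:54950790-54958030, plus strand) had 164 and 183 CPM with *Dyrk1a* shRNA, 221 and 199 CPM with harmine, and 235 and 235 CPM in the controls. *Dyrk1a* shRNA lay below harmine, and harmine below control, with no overlap, and the controls were almost equal. Its log2 fold change with *Dyrk1a* shRNA was -0.43 (standard error 0.18, edgeR unadjusted p = 0.0268, adjusted p = 0.612) and came to -0.44 and -0.43 against each control alone. Against harmine it was -0.27 (standard error 0.17), and for harmine against control -0.16. Its exons share 114 of 2370 bases with *AY074887* on the opposite strand. *Psma7* (chr2:180036374-180042433), in contrast, had 160.2 and 154 CPM with *Dyrk1a* shRNA, 185 and 171 CPM with harmine, and 284 and 160.4 CPM in the controls. *Psma2*, likewise, had 172 and 156 CPM with *Dyrk1a* shRNA, 206 and 173 CPM with harmine, and 302 and 155 CPM in the controls, with all treated libraries between the controls. For *Psma7* both *Dyrk1a* shRNA libraries were just below control 2, and its log2 fold change with *Dyrk1a* shRNA was -0.51 (standard error 0.23, edgeR unadjusted p = 0.0387, adjusted p = 0.622). It fitted at -0.042 against control 2 alone.

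Between *Dyrk1a* shRNA and harmine, the alpha genes were the class furthest below 0. Their median was -0.18, 6 of 7 were below 0, and 4 (*Psma2*, *Psma4*, *Psma6* and *Psma7*) had both *Dyrk1a* shRNA libraries below both harmine libraries, beside 20.8% of all genes. *Psma6* had 110.4 and 105 CPM with *Dyrk1a* shRNA, against 139.5 and 119 CPM with harmine. *Psma5* was the exception, with 185 and 166 CPM with *Dyrk1a* shRNA, against 163 and 156 CPM with harmine. The difference between the treatments was correlated with base composition across genes. Over the 47 proteasome genes, this fold change followed the GC content of the transcript at a Spearman correlation of 0.63, and over 9990 genes at 0.42, both across genes that share the same libraries. With trends of length and GC content removed from each library, the alpha median between the treatments was 0.031, and with *Dyrk1a* shRNA against control it was -0.11. The part of base composition in these differences was not tested.

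In the 19S cap, the class medians stayed near that of all genes, and single genes stood on both sides. *Psmc6*, an ATPase, had 174 and 126 CPM with *Dyrk1a* shRNA, 220.3 and 161 CPM with harmine, and 149 and 147 CPM in the controls. Both harmine libraries lay above both controls, with a log2 fold change of 0.37 (standard error 0.21, edgeR adjusted p = 0.928) that came to 0.37 and 0.36 against each control alone. *Psmc5*, another ATPase, had 26.8 and 33.6 CPM with *Dyrk1a* shRNA, 29.5 and 32.7 CPM with harmine, and 43.9 and 37.1 CPM in the controls. Its groups did not overlap with the controls in either comparison, at -0.39 with harmine and -0.42 with *Dyrk1a* shRNA (standard error 0.23 each). *Psmc1* was the one ATPase highest in control 2, with 66.3 and 64.0 CPM with *Dyrk1a* shRNA, 61.7 and 63.4 CPM with harmine, and 60.9 and 86.9 CPM in the controls. The ATPases other than *Psmc5* and *Psmc6* ranged from -0.23 to 0.14 with harmine and from -0.17 to 0.036 with *Dyrk1a* shRNA.

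Among the 11 non-ATPase genes, *Psmd11*, a lid subunit, was above both controls in all 4 treated libraries. It had 79.7 and 68.4 CPM with *Dyrk1a* shRNA, 73.9 and 73.4 CPM with harmine, and 52.1 and 65.8 CPM in the controls, with log2 fold changes of 0.34 (standard error 0.21) and 0.33 (standard error 0.20). *Psmd3*, another lid subunit, had 141 and 118.5 CPM with *Dyrk1a* shRNA, 119 and 124 CPM with harmine, and 108 and 109 CPM in the controls. These controls were close to each other, and the log2 fold changes were 0.26 and 0.16. *Psmd2* and *Psmd13* were also above both controls with *Dyrk1a* shRNA, at 0.24 and 0.11. *Psmd6* lay below both controls in all 4 treated libraries, with 57.9 and 54.5 CPM with *Dyrk1a* shRNA, 62.6 and 53.1 CPM with harmine, and 73.4 and 65.8 CPM in the controls. With harmine *Psmd13* and *Psmd1* lay below both controls as well. *Psmd13* did so by little, with 51.0 and 51.0 CPM with harmine against 53.4 and 52.3 CPM in the controls (-0.053). *Psmd1* had 47.7 and 35.6 CPM with harmine against 47.7 and 55.7 CPM in the controls (-0.31, standard error 0.23), so that harmine 1 and control 1 were almost equal. *Psmd8*, the most abundant gene of the class, had 259 and 243 CPM with *Dyrk1a* shRNA, 272 and 217 CPM with harmine, and 249 and 189 CPM in the controls, with replicate 1 above replicate 2 in every group. *Psmd14*, which removes ubiquitin chains from substrates, had 92.3 and 65.1 CPM with *Dyrk1a* shRNA, 90.6 and 78.9 CPM with harmine, and 91.6 and 72.6 CPM in the controls, and the groups overlapped.

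Of the activators, *Psme1* and *Psme2*, the subunits of the interferon-induced PA28 ring, were expressed at the level of the core. *Psme2* (chr14:55587441-55591113) had 189 and 204 CPM with *Dyrk1a* shRNA, 204 and 185 CPM with harmine, and 309 and 165 CPM in the controls. All treated libraries lay between the controls, and the sign of its fold change turned with the control, from -0.67 against control 1 alone to 0.23 against control 2 alone with harmine. *Psme1* had 203 and 209 CPM with *Dyrk1a* shRNA, 196 and 189 CPM with harmine, and 247 and 185 CPM in the controls, again with all treated libraries between the controls. *Psme4*, the nuclear activator PA200, had 79.7 and 92.0 CPM with *Dyrk1a* shRNA, 90.9 and 90.8 CPM with harmine, and 104 and 106 CPM in the controls. These controls hardly differed and all treated libraries were below them, at -0.29 with *Dyrk1a* shRNA (standard error 0.19, edgeR adjusted p = 0.731) and -0.21 with harmine. *Psme3*, the nuclear PA28 subunit, and *Psmf1*, an inhibitor of the core in vitro, overlapped between all groups.

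Of the assembly chaperones, *Psmd10* and *Psmg2* had the lowest fold changes with *Dyrk1a* shRNA. *Psmd10* (chrX:140948429-140956728), a chaperone of the cap known as gankyrin, had 12.6 and 20.0 CPM with *Dyrk1a* shRNA, 20.6 and 22.7 CPM with harmine, and 35.8 and 20.3 CPM in the controls. The second *Dyrk1a* shRNA library and control 2 were almost equal. The log2 fold change of -0.79 was the lowest of any proteasome gene (standard error 0.32, edgeR unadjusted p = 0.0239, adjusted p = 0.612), and against control 2 alone it was -0.29. *Psmg2*, which joins *Psmg1* in starting the alpha ring, had 11.5 and 10.3 CPM with *Dyrk1a* shRNA, 10.4 and 14.3 CPM with harmine, and 18.8 and 15.2 CPM in the controls. All treated libraries lay below both controls, at -0.66 with *Dyrk1a* shRNA (standard error 0.33) and -0.47 with harmine (standard error 0.32). Control 2 held 24 counts of *Psmd10* and 18 of *Psmg2*, so these values are imprecise.

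Genes around the proteasome gave no call after adjustment either with both controls in the fit. Of 9 partners outside the family names, 8 genes for the transcription factors and processing of NRF1, 14 ubiquitin and shuttle genes and 12 genes of MHC class I processing, 0 passed in any comparison by edgeR. Their median log2 fold changes were 0.064, 0.17, 0.094 and -0.058 with harmine, and 0.031, 0.25, 0.11 and 0.0092 with *Dyrk1a* shRNA, beside -0.019 and -0.013 over all genes. Between the treatments they were -0.12, 0.12, 0.014 and 0.20. At an unadjusted p under 0.05, harmine had 0, 0, 0 and 0 higher and 0, 1, 0 and 2 lower, *Dyrk1a* shRNA had 0, 1, 0 and 0 higher and 3, 0, 0 and 1 lower, and between the treatments 0, 3, 1 and 1 were higher and 1, 0, 0 and 0 lower. Among all genes, harmine had 2.22% higher and 3.07% lower at this p, *Dyrk1a* shRNA 3.10% and 4.59%, and the treatments against each other 2.91% and 2.82%. Without control 2, the log2 fold changes with harmine were -1.16 for *B2m*, -0.75 for *Pomp*, -0.98 for *Shfm1* and 0.65 for *Uba1*. With *Dyrk1a* shRNA they were -1.29, -1.03, -1.29 and 0.77. Without control 1 they came to -0.17, 0.34, 0.23 and -0.055 with harmine, and -0.31, 0.057, -0.089 and 0.060 with *Dyrk1a* shRNA.

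*Ddi2*, the protease that activates NRF1, had 46.7 and 50.1 CPM with *Dyrk1a* shRNA, 34.6 and 38.0 CPM with harmine, and 28.2 and 27.0 CPM in the controls. The groups lay in that order without overlap, with a log2 fold change of 0.81 for *Dyrk1a* shRNA against control (standard error 0.22, edgeR unadjusted p = 0.00241, adjusted p = 0.612). *Nfe2l1*, the gene of NRF1, had 69.4 and 74.6 CPM with *Dyrk1a* shRNA, 51.6 and 50.7 CPM with harmine, and 55.9 and 76.0 CPM in the controls, and both harmine libraries lay below every other library (0.49 for *Dyrk1a* shRNA against harmine, standard error 0.19). *Nfe2l2*, the gene of NRF2, was below both controls with harmine alone, with 25.6 and 28.8 CPM against 40.2 and 36.3 CPM in the controls. *Uchl5*, a deubiquitinase of the cap, had 35.2 and 27.7 CPM with *Dyrk1a* shRNA, 53.7 and 42.0 CPM with harmine, and 47.7 and 58.2 CPM in the controls. It lay below both other groups with *Dyrk1a* shRNA, at -0.75 against control (standard error 0.24) and -0.61 against harmine (standard error 0.22).

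*Nlrc5*, the transactivator of MHC class I genes, was the lowest of its list with harmine. It had 53.3 and 70.7 CPM with *Dyrk1a* shRNA, 36.4 and 48.8 CPM with harmine, and 64.0 and 81.0 CPM in the controls. Both harmine libraries lay below every other library, at -0.75 against control (standard error 0.23, edgeR unadjusted p = 0.00473, adjusted p = 0.784), and control 2 was the higher control. *B2m*, the light chain of MHC class I, had 780 and 677 CPM with *Dyrk1a* shRNA, 820.3 and 778 CPM with harmine, and 1788 and 896 CPM in the controls. Control 1 was far above the rest, as in the core genes, and all treated libraries were below both controls (-0.88 with *Dyrk1a* shRNA, standard error 0.29, edgeR adjusted p = 0.612). Against control 2 alone this was -0.31 (edgeR adjusted p = 0.591), and against control 1 alone -1.29 (edgeR adjusted p = 0.000316). *Shfm1*, a small subunit of the cap, showed the same excess in control 1, with 118 and 116 CPM with *Dyrk1a* shRNA, 154 and 139 CPM with harmine, and 288 and 124 CPM in the controls. With harmine its log2 fold change was 0.23 against control 2 alone and -0.98 against control 1 alone (edgeR adjusted p = 0.00434). *Rad23b*, a shuttle of ubiquitinated proteins, had 99.6 and 102 CPM with *Dyrk1a* shRNA, 92.7 and 77.9 CPM with harmine, and 60.9 and 93.7 CPM in the controls, where control 1 was the lowest library.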

How the data were processed

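Polyadenylated RNA was primed with poly-dT, tagmented with Nextera and read on a MiSeq, a library type that keeps no strand. Reads were mapped by the authors to mm10 (TopHat), and RSEM gave the expected counts per gene that they deposited, unnormalized. TopHat2 2.0.13, RSEM and DESeq stand in the submitters' processing notes. For RSEM and the annotation the versions are not given in the sources used here.

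After rounding of the expected counts, genes were tested in edgeR 4.0.16 under R 4.3.3 (TMM, filterByExpr at a minimum count of 10, robust quasi-likelihood, two-sided, Benjamini-Hochberg over the 10607 genes tested, threshold 0.05), in 1 fit of 3 group means to all 6 libraries. Standard errors were derived from the fold change and F statistic, and intervals are at 95%. Classes follow textbook roles. The members and lists were chosen with earlier results of these data known. Named genes are, per comparison, the gene with the smallest unadjusted p of each class and list, the 6 catalytic subunits of the main pairs, any gene past the threshold, and *Dyrk1a*. Other members were named after their values were seen. A result chosen by this rule is left out of the text. Alternatives were library-size scaling, DESeq2 size factors, the DESeq2 1.42.0 Wald test, filters at no minimum or at 50 counts, replicate number as a block, the compared pair alone, thinning to the smallest library, removal of length and GC trends by splines with 4 degrees of freedom, another pseudocount (1), and leaving out each library. Lengths and positions come from GENCODE M21 on GRCm38, and levels per kilobase divide CPM by transcript length. The chi-square of replicate counts per degree of freedom was 3.58 for *Dyrk1a* shRNA, 3.84 for harmine and 10.4 for control, so no libraries were merged. The fit was also run on simulated counts with known changes, and the outcome is not given here.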

Additional observations from a re-analysis of the deposited data

How the results depend on the processing

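No proteasome gene was called in any comparison under any alternative other than leaving out control 2. Leaving out each library in turn, the number called ran from 0 to 5 with harmine and from 0 to 4 with *Dyrk1a* shRNA, and the median over the proteasome genes from -0.35 to 0.090 with harmine, from -0.30 to 0.058 with *Dyrk1a* shRNA and from -0.10 to 0.020 between them. With harmine the class medians ran from -0.33 to 0.13 (20S alpha), -0.68 to 0.13 (20S beta), -0.55 to -0.15 (immunoproteasome), -0.064 to 0.14 (19S ATPases), -0.60 to 0.090 (assembly chaperones) and -0.20 to -0.025 (activators and inhibitor). With *Dyrk1a* shRNA they ran from -0.43 to -0.021 (20S alpha), -0.60 to 0.14 (20S beta), -0.69 to 0.11 (assembly chaperones) and -0.33 to -0.055 (activators and inhibitor), and between the treatments from -0.055 to 0.069 (activators and inhibitor). The difference in log2 ratio of *Psmb8* to *Psmb5* ran from 0.068 to 0.40 with harmine and from 0.26 to 0.59 with *Dyrk1a* shRNA, and that of *Psmb10* to *Psmb7* from -0.26 to 0.55 with *Dyrk1a* shRNA and from -0.11 to 0.70 between the treatments. Over the 47 genes the sign differed between the controls for 30 with harmine and 24 with *Dyrk1a* shRNA, with no share over all genes computed. Among the genes that the naming rule takes, the fold changes that reversed when a library was left out were, with harmine, *Psma7* (-0.68 to 0.14), *Psmb6* (-0.83 to 0.16), *Psmb7* (-0.61 to 0.13), *Psme2* (-0.67 to 0.23) and *Shfm1* (-0.98 to 0.23). With *Dyrk1a* shRNA they were *Psmb6* (-0.77 to 0.21), *Psmb7* (-0.60 to 0.14), *Psmb8* (-0.33 to 0.034) and *Psmb10* (-0.36 to 0.12), and between the treatments *Psmb6* (-0.12 to 0.22), *Psmb7* (-0.18 to 0.18), *Psmb9* (-0.024 to 0.11) and *Psme3* (-0.36 to 0.075).

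With length and GC trends removed, the median over all proteasome genes was -0.15 with *Dyrk1a* shRNA and 0.025 between the treatments, that of the 20S alpha genes -0.11 and 0.031, and that of the activators and inhibitor -0.044 with *Dyrk1a* shRNA. *Psmb6* (-0.0053) and *Psmc6* (0.00026) changed sign between the treatments. Thinned to the smallest library, the median over all proteasome genes was -0.21 with harmine, that of the activators and inhibitor was 0.079 between the treatments, and *Psmb10* to *Psmb7* differed by 0.87. There *Psmb10* came to 0.023 with *Dyrk1a* shRNA, and *Psmb6* to -0.033, *Psmb7* to -0.11 and *Psme3* to 0.079 between the treatments. The cause of these shifts was not tested.

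The replicate numbers share no stated origin. Over all genes tested, the deviations of same-numbered libraries correlated at 0.10 (harmine and control), 0.019 (*Dyrk1a* shRNA and control) and 0.23 (*Dyrk1a* shRNA and harmine). Over the proteasome genes these correlations were 0.13, 0.12 and 0.42. With only 2 numbers, neither set of values pairs the libraries. With the replicate number as a block, 0 proteasome genes were called, 1, 5 and 0 passed an unadjusted p of 0.05, and *Psmb7* came to -0.00012 between the treatments. The share of all genes at that p is not given for the block fit. Sums with near-identical copies could not be run, since the table holds 0 rows with such a suffix. Depth limits the chaperones, *Psmb10* and *Psmb11* most.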
